A study of Homo sapiens with 12 samples.

Results

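The genes described here are the 3 PGC-1 coactivators PPARGC1A (PGC-1α), PPARGC1B (PGC-1β) and PPRC1 (PRC), the transcription factors ESRRA (ERRα), NRF1 and GABPA, and 4 genes whose products act on mitochondrial DNA or its transcripts, TFAM, TFB1M, TFB2M and POLRMT. They were chosen by name, with earlier results of these data known, and are 10 of the 58288 gene identifiers in the table of counts. All 10 had enough reads to be tested among 13959 genes. RNA was measured in HK2, an established line derived from human kidney proximal tubule, in 4 groups of 3 libraries. Control cells, labelled as wild type, carried a nontarget short hairpin RNA (shRNA), and knockdown cells an shRNA against FLCN, the gene for folliculin that is lost in Birt-Hogg-Dubé syndrome. Both kinds were harvested at fewer than 30 passages (short-term) or, by the labels, beyond 120 passages (long-term), all in the same serum-containing medium. The study's methods set a somewhat lower limit for long-term. The cells were selected clones. The sources used here do not tie libraries to clones, so the effect of the shRNA and that of the clone cannot be told apart. The replicates are labelled as biological, without saying whether cultures were separate from the start, so p-values measure the spread between these samples.

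PGC-1 coactivators do not bind DNA themselves. They attach to nuclear receptors such as ERRα and to NRF1 and GABP, and raise transcription of nuclear genes for respiration and fatty acid oxidation. NRF1 and GABP in turn act on the genes of the mitochondrial transcription machinery: TFAM packages and bends mitochondrial DNA, TFB2M opens the promoter, and POLRMT is the RNA polymerase. TFB1M is a methyltransferase of the small mitochondrial ribosomal RNA. Folliculin is known to restrain the transcription factors TFE3 and TFEB, which can act on PPARGC1A, and loss of FLCN has been tied to PGC-1α in muscle and kidney.

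The 300 bases around the start of transcription (250 before, 50 after, RefSeq on GRCh38.p14) are shown for the 3 genes that were called after long-term knockdown, PPARGC1A, TFB1M and TFB2M, and for TFAM, the textbook NRF1 target, which was not. PPARGC1A has 2 annotated starts, on chromosome 4 at 23881101 (proximal) and 24472905 (distal). The interval of PPARGC1A in GENCODE 29, whose gene version the counts carry, is 23755041 to 23904089 and does not reach the distal start. All sequences run 5′ to 3′ along the gene's own strand and capitals mark the motif matches named below.
PPARGC1A distal, chr4:24472856-24473155 (minus strand): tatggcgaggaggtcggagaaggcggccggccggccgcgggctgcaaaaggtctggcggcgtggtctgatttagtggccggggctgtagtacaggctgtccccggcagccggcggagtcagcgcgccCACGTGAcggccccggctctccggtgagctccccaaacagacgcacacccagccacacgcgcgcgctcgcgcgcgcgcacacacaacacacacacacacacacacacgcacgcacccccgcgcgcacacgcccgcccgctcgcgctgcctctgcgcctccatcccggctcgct
PPARGC1A proximal, chr4:23881052-23881351 (minus strand): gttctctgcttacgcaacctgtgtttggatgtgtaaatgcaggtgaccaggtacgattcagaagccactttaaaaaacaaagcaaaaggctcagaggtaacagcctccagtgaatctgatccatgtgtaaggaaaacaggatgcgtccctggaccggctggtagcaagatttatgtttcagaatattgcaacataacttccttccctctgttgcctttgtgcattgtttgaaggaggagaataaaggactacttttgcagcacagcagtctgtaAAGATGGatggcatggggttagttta
TFB1M, chr6:155314435-155314734 (minus strand): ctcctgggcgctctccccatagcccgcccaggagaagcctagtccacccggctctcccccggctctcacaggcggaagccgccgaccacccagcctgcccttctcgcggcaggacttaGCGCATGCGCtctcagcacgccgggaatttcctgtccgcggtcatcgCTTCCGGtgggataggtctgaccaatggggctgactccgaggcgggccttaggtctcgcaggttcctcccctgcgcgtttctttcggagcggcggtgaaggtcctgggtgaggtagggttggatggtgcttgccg
TFB2M, chr1:246566212-246566511 (minus strand): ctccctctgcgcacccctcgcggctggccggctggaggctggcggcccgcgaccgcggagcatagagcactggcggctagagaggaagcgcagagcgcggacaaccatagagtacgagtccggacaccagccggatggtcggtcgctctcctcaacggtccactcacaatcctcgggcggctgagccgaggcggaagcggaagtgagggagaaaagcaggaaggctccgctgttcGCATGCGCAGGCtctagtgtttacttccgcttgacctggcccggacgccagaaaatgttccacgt
TFAM, chr10:58385160-58385459 (plus strand): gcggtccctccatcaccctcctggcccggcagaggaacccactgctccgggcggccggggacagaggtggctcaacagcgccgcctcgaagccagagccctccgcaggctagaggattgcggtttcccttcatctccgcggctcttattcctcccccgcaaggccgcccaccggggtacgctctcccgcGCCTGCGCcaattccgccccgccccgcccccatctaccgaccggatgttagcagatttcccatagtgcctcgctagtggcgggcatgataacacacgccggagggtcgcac

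The motifs searched were, on both strands, GCGCANGC for NRF1, CCGGAAG for GABP and other ETS factors, AAGGTCA for ERR, TGACGTCA for the cyclic AMP response element, TCACGTG for TFE3 and its relatives, and AAGATGG for YY1. A promoter entry was found for 9 of the 10 genes, and NRF1 is named only. The NRF1 motif stood in ESRRA, TFAM, TFB1M, TFB2M and POLRMT, which is 5 of the 9 genes, and in 11.9% of all 34943 promoters of the table. In TFAM it lay 61 bases before the start, in TFB2M 15 and 11 bases before it as overlapping matches on opposite strands, and in TFB1M 132 and 130 bases before it, again overlapping. The ETS motif, in 10.2% of all promoters, was found in GABPA, TFB1M and POLRMT. In TFB1M it lay 85 bases before the start. The distal PPARGC1A promoter had a TFE3-type motif 123 bases before the start (3.69% of all promoters) and the proximal one a YY1 motif 25 bases after it (5.85%), as did PPRC1 at 27 bases. Both YY1 matches are lost in shorter promoters of 250 bases, where 3.70% of all promoters hold that motif. The ERR motif (3.92% of all promoters) and the cyclic AMP response element (1.84%) had no match in any of the 10 promoters, and PPARGC1B had no match to any motif. A match is a run of letters and says nothing about binding in these cells.

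Libraries held 5825779 to 8991051 counts. The tests are quasi-likelihood tests of edgeR on 1 fit to the 12 libraries, with p-values adjusted over the genes tested and a call at 0.05. Levels are given as CPM, that is counts scaled to a common normalised library size. FLCN itself had 12.7 to 16.7 CPM in short-term nontarget and 5.66 to 6.58 CPM in short-term knockdown libraries, and 9.92 to 12.2 against 6.31 to 7.97 CPM in long-term ones. It was lower in both knockdowns, with log2 fold changes of −1.33 (short-term) and −0.70 (long-term), and it shares 1161 exonic bases with the annotated gene AC055811.2. Replicate 3 of short-term knockdown, long-term nontarget and long-term knockdown stood apart, with a chi-square per degree of freedom of 6.32 to 11.9 against the other libraries of their groups and 2.07 to 4.93 for all other pairs within a group. POLRMT had 68.7, 63.3 and 71.9 CPM in these 3 libraries and 39.1 to 48.3 CPM in the other 9, and PPRC1 and ESRRA were likewise above every other library in them. No label marks them as a batch. Results are therefore also given without replicate 3 of every group, a choice made after seeing the data. Of the proximal tubule markers, 2 of 10 had enough reads to be tested (SLC5A2 and GGT1), while LRP2, SLC22A6 and HNF4A had 0 counts. The summed level of the 10 markers was 47.6 to 60.6 CPM in short-term nontarget and 69.6 to 79.99 CPM in short-term knockdown libraries, and 39.3 to 57.8 against 72.9 to 96.2 CPM in long-term ones. It thus moved with PPARGC1A, and its part in the results was not tested. Of 8 general renal epithelial markers 6 could be tested, among them PAX8, KRT8 and KRT18, which were present in every library, while CDH1 and PAX2 were too low (at most 0.906 and 1.70 CPM). Their summed level was 2526 to 2797 CPM in short-term nontarget and 3062 to 3915 CPM in short-term knockdown libraries, so it also moved with PPARGC1A there, and 3158 to 3524 against 2434 to 3363 CPM in long-term ones, where the ranges overlapped. Its part in the results was not tested. Of 3 fibroblast markers, COL1A1 (13.4 to 37.2 CPM) and PDGFRB (0.347 to 9.32 CPM) could be tested and DCN could not. PTPRC, which marks leukocytes, had 0 counts, and endothelial markers stayed at or under 0.628 CPM in sum.

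**Figure D1:**
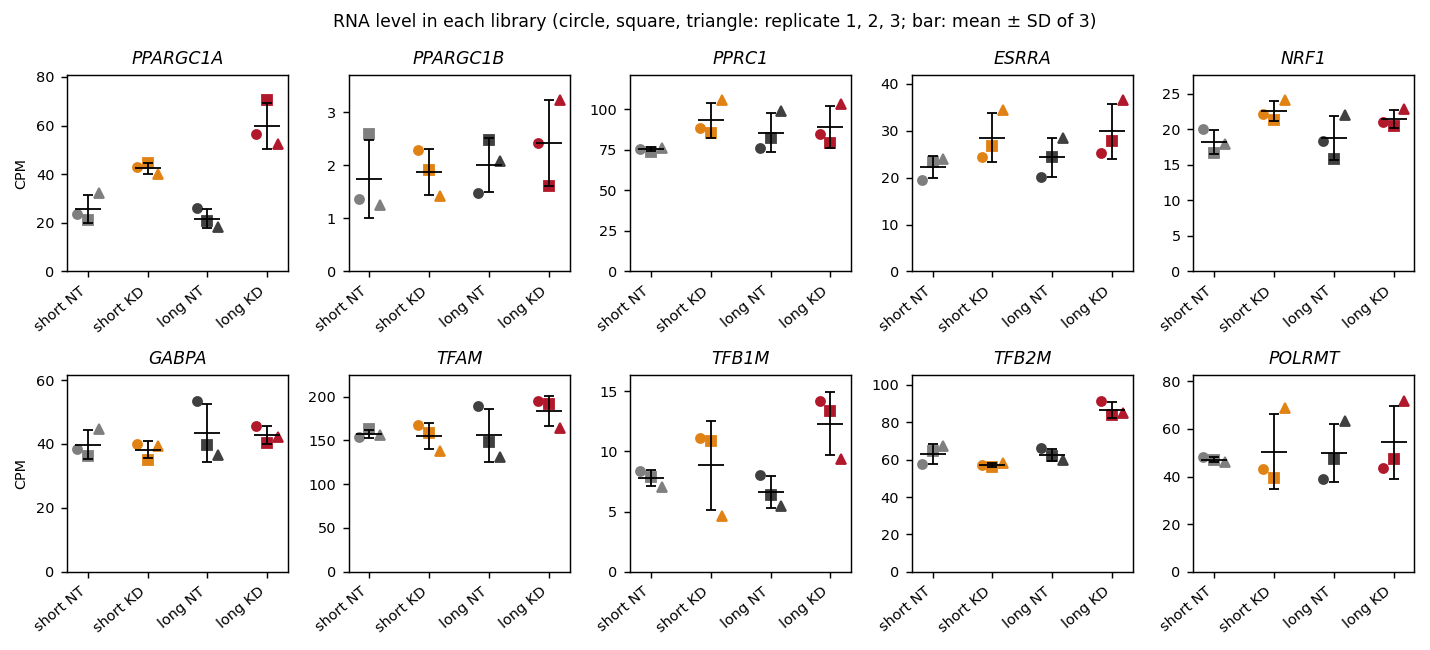
RNA level in CPM (linear axes from 0) of the 10 genes in each of 12 libraries, with NT for nontarget and KD for FLCN knockdown; symbols give the replicate number and bars the mean ± SD of 3. PPARGC1A lay between 18.2 and 32.4 CPM in the 6 nontarget libraries and between 39.99 and 70.4 CPM in the 6 knockdown libraries, whereas POLRMT followed replicate 3 of 3 groups.

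PPARGC1A, the inducible member of the coactivator family, differed most between libraries, with 3.86 times as much in the highest as in the lowest. It had 23.6, 21.1 and 32.4 CPM in the short-term controls and 42.9, 44.5 and 39.99 CPM in short-term knockdown libraries. The long-term nontarget libraries had 26.0, 20.8 and 18.2 CPM, and the long-term knockdown libraries 56.4, 70.4 and 52.4 CPM. Every knockdown library was above every nontarget library of either time, and every long-term knockdown library was above every short-term one. These values rest on 134 to 488 counts per library. In bulk RNA such as this, fewer cells of a type and less RNA per cell cannot be told apart. PPARGC1A (ENSG00000109819.8) shared no exonic stretch with another gene in the annotation and had no pseudogene named after it.

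After short-term knockdown PPARGC1A rose 1.65-fold (log2 fold change 0.73, SE 0.166, edgeR's adjusted p = 0.00852), and after long-term knockdown 2.76-fold (1.46, SE 0.166, edgeR's adjusted p = 3.33e-06). The short-term call was lost without nontarget replicate 1 (edgeR's adjusted p = 0.0532) or replicate 2 (0.0610). The long-term call held in each of 6 fits without 1 library, with an adjusted p (edgeR) of at most 5.89e-05. Without replicate 3 of every group the log2 fold changes were 0.96 and 1.43, both called. The 40 tested genes nearest to PPARGC1A on chromosome 4 had median log2 fold changes of −0.04 and −0.22, with 1 called higher and 2 lower short-term and 5 higher and 11 lower long-term.

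The other coactivators stayed closer to their controls. PPRC1, an early-response relative of PGC-1α in growing cells, had 75.7, 73.8 and 76.0 CPM in the short-term controls and 88.6, 85.5 and 105 CPM in short-term knockdown libraries. The groups did not overlap, but the difference did not pass the threshold (log2 fold change 0.31, SE 0.126, edgeR's adjusted p = 0.146). In long-term cells PPRC1 had 75.8, 81.9 and 99.0 CPM without and 84.6, 79.1 and 103 CPM with knockdown, and the ranges overlapped (0.05, edgeR's adjusted p = 0.790). PPARGC1B had only 8 to 21 counts per library (1.26 to 3.22 CPM). At that depth its log2 fold changes of 0.13 (SE 0.388) and 0.26 (SE 0.359) were smaller than their errors.

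Per length of merged exons, PPRC1 was the most abundant coactivator in every library. On the same scale PPARGC1A made up 13.6 to 19.1% of the coactivator RNA in short-term nontarget cells, 17.4 to 22.4% after short-term knockdown, 9.28 to 16.0% in long-term nontarget cells and 21.9 to 33.1% after long-term knockdown. The long-term ranges were apart and the short-term ranges overlapped. PPARGC1B never exceeded 1.41% of the sum. These shares depend on merged exon length, 10870 bases for PPARGC1A and 6095 for PPRC1.

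Of the transcription factors, ESRRA is the orphan receptor through which PGC-1α reaches many respiratory genes. It had 19.5, 23.2 and 24.0 CPM in short-term nontarget and 24.3, 26.8 and 34.3 CPM after short-term knockdown, ranges that did not overlap by a small margin (log2 fold change 0.35, SE 0.176, edgeR's adjusted p = 0.250). In long-term cells it had 20.1, 24.3 and 28.5 CPM against 25.2, 27.9 and 36.5 CPM with knockdown (0.29, SE 0.173, edgeR's adjusted p = 0.235). The highest value of each group was that of replicate 3. ESRRA shares 284 exonic bases with TRMT112 on the opposite strand, and whether reads were counted by strand is not given in the sources used here.

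NRF1 here is nuclear respiratory factor 1, not the stress factor NFE2L1 that shares the alias. It had 20.0, 16.7 and 17.9 CPM in the short-term controls and 22.1, 21.3 and 24.1 CPM in short-term knockdown libraries, again without overlap and without passing the threshold (log2 fold change 0.30, SE 0.144, edgeR's adjusted p = 0.216). The long-term difference was 0.19 (SE 0.143, edgeR's adjusted p = 0.354). GABPA, the DNA-binding subunit of GABP, had 35.1 to 53.6 CPM over the 12 libraries and log2 fold changes of −0.06 and −0.02 (edgeR's adjusted p = 0.857 and 0.932). GABPA shares 413 exonic bases with ATP5PF on the opposite strand, and NRF1 shares 112 with the pseudogene RNA5SP244.

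TFB2M, which melts the mitochondrial promoter for POLRMT, was higher after long-term knockdown. It had 57.4, 64.4 and 67.4 CPM in the short-term controls, 57.1, 56.1 and 58.2 CPM after short-term knockdown, 66.1, 61.9 and 59.9 CPM in long-term nontarget cells and 91.6, 83.6 and 85.1 CPM after long-term knockdown. The 3 long-term knockdown libraries were above the other 9, which covered a narrow range. The long-term rise was 1.39-fold (log2 fold change 0.47, SE 0.0981, edgeR's adjusted p = 0.00136) and held in each of 6 fits without 1 library. The short-term difference was −0.14 (SE 0.0998, edgeR's adjusted p = 0.442). TFB2M (ENSG00000162851.7, chromosome 1, 246540560 to 246566324, minus strand, GRCh38) shared no exon with another gene, and its 40 nearest genes had a median long-term log2 fold change of −0.11.

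TFB1M, the ribosomal RNA methyltransferase, had fewer reads, 26 to 123 per library. It had 8.34, 7.90 and 7.07 CPM in short-term nontarget, 11.1, 10.8 and 4.60 CPM in short-term knockdown, 8.04, 6.35 and 5.43 CPM in long-term nontarget and 14.2, 13.4 and 9.33 CPM in long-term knockdown libraries. The long-term groups did not overlap, while short-term knockdown replicate 3 was the lowest of all 12 libraries. TFB1M rose 1.88-fold after long-term knockdown (log2 fold change 0.91, SE 0.262, edgeR's adjusted p = 0.0139). The call was lost without long-term nontarget replicate 3 (edgeR's adjusted p = 0.0609) or long-term knockdown replicate 1 (0.0687), and held without replicate 3 of every group (0.94, edgeR's adjusted p = 5.80e-04). The short-term difference was 0.21 (SE 0.267, edgeR's adjusted p = 0.704) and, without replicate 3, 0.44 (edgeR's adjusted p = 0.164). TFB1M (ENSG00000029639.10, chromosome 6, 155257509 to 155314493, minus strand) shares 215 exonic bases with TIAM2 on the opposite strand. Its 40 nearest genes had a median long-term log2 fold change of −0.27.

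TFAM, the packaging protein of mitochondrial DNA, had 154, 163 and 156 CPM in short-term nontarget and 168, 159 and 138 CPM in short-term knockdown cells (log2 fold change −0.02, SE 0.124, edgeR's adjusted p = 0.949). In long-term cells it had 189, 148 and 130 CPM without and 195, 191 and 164 CPM with knockdown. Each knockdown library was above the nontarget library of the same number, but the ranges overlapped and the difference of 0.24 (SE 0.124) was not called (edgeR's adjusted p = 0.168). With the replicate number as a block it was (edgeR's adjusted p = 0.0441), as without long-term nontarget replicate 1 (0.0160). POLRMT, the polymerase, had log2 fold changes of 0.09 and 0.11 (SE 0.223 and 0.221, edgeR's adjusted p = 0.863 and 0.748), with replicate 3 the highest in 3 of the 4 groups.

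**Figure D2:**
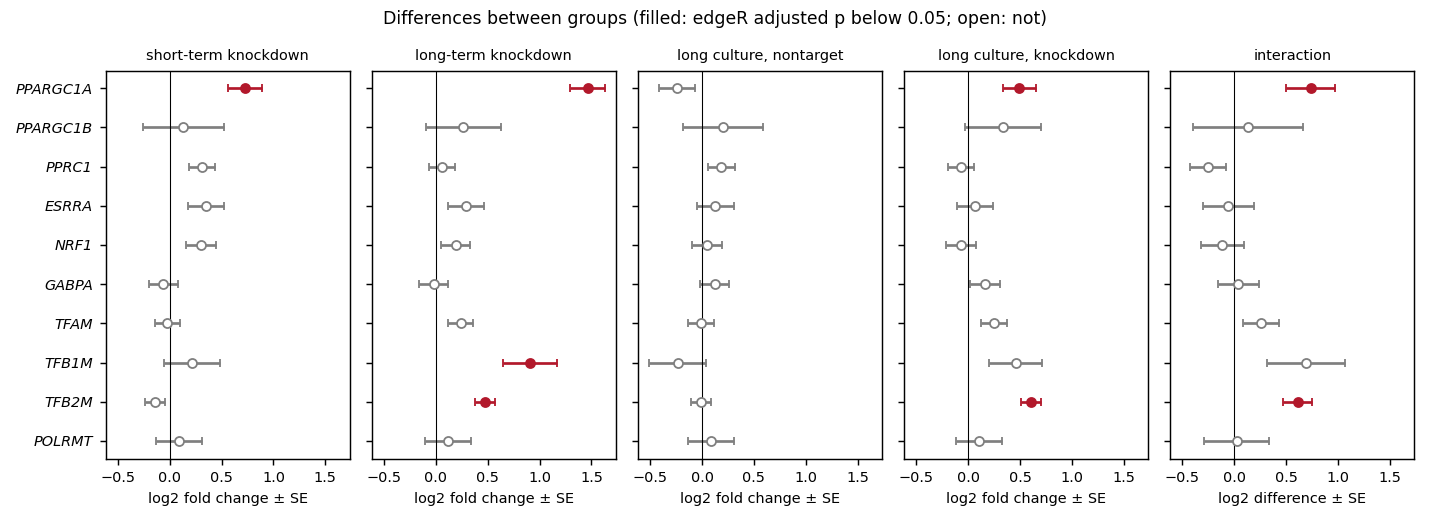
Log2 fold change ± SE of the 10 genes in the 4 comparisons between groups, and the log2 difference of the long-term and short-term knockdown effects (interaction); filled points passed the edgeR threshold. PPARGC1A was called in 4 panels, TFB2M in 3 and TFB1M in 1.

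Counted over the 10 genes, 1 was called after short-term knockdown (PPARGC1A, higher), where 10.3% of all genes tested were called and 5.62% were called higher. Groups did not overlap for 4 of the 10 (PPARGC1A, PPRC1, ESRRA and NRF1, all higher in knockdown), against 30.2% of all genes. After long-term knockdown 3 were called, all higher (PPARGC1A, TFB1M and TFB2M), against 29.5% of all genes called and 13.7% called higher. These 3 were also the genes whose groups did not overlap, against 39.6% of all genes. With the replicate block 4 were called, against 36.8% of all genes in that fit. At the fold limit of 2.5 that the study set, PPARGC1A alone passed after long-term knockdown (6.61% of all genes) and none of the 10 after short-term knockdown (1.79%). Without long-term knockdown replicate 2 PPARGC1A fell just below that limit (log2 fold change 1.3199). The shares of the 10 genes called in either direction are thus near those of all genes. The median log2 fold change of the 10 was 0.17 short-term and 0.25 long-term, beside 0.00 for all genes in both. The study had reported the rise of PPARGC1A from these same samples, so its part in these counts and medians is not independent evidence.

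Long culture by itself, asked of the nontarget cells, gave no call among the 10 genes. In edgeR 0 were called, 0 had an unadjusted p under 0.05 and DESeq2 called 0, against 7.55% of all genes called in edgeR. The log2 differences ran from −0.24 in PPARGC1A (SE 0.173, edgeR's adjusted p = 0.506) to 0.20 in PPARGC1B (SE 0.382). In knockdown cells, long culture went with more TFB2M (log2 fold change 0.60, SE 0.0988, edgeR's adjusted p = 1.92e-04) and more PPARGC1A (0.49, SE 0.159, edgeR's adjusted p = 0.0290). Those 2 calls, both higher, stand beside 26.6% of all genes called and 11.5% called higher. TFB2M held in each fit without 1 library. The call of PPARGC1A was lost without any 1 of the 3 short-term knockdown libraries (edgeR's adjusted p = 0.0700, 0.0501 and 0.0706) and without long-term knockdown replicate 2 (0.165), although its groups did not overlap and it was called without replicate 3 of every group (0.00211). TFAM, at 0.25 (SE 0.124, edgeR's adjusted p = 0.160), passed with the replicate block (0.0447).

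The knockdown effect differed between the times for 2 of the 10 genes, TFB2M and PPARGC1A, against 13.4% of all genes. For TFB2M the long-term effect exceeded the short-term one by 0.61 in log2 units (SE 0.140, edgeR's adjusted p = 0.00628), and the call held in each of 12 fits without 1 library. For PPARGC1A the excess was 0.74 (SE 0.234, edgeR's adjusted p = 0.0456), just under the threshold. That call held in only 3 of 12 fits without 1 library (edgeR's adjusted p as high as 0.145, without short-term nontarget replicate 3) and was lost without replicate 3 of every group (0.47, edgeR's adjusted p = 0.111). For TFB1M the excess was 0.69 (SE 0.375, edgeR's adjusted p = 0.256), so its long-term rise was not shown to differ from its short-term value.

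Set side by side per kilobase of exon, TFB2M and TFAM were the most abundant of the 10. In short-term nontarget cells the mean level was 34.1 CPM per kb for TFB2M, 28.1 for TFAM, 12.3 for PPRC1, 9.19 for POLRMT, 7.35 for ESRRA, 7.34 for GABPA, 4.41 for NRF1, 2.84 for TFB1M, 2.36 for PPARGC1A and 0.135 for PPARGC1B. The ranges of ESRRA and GABPA overlapped, as did those of TFB1M and PPARGC1A, and the other neighbours in this order were apart. The order was the same in long-term nontarget cells, where TFB2M overlapped TFAM and POLRMT overlapped ESRRA as well. PPARGC1A was ninth of the 10 in both nontarget groups, eighth after short-term knockdown (3.90 CPM per kb) and seventh after long-term knockdown (5.50 CPM per kb), where it overlapped NRF1 at 5.20. PPARGC1B was last in every group. The order depends on merged exon length, which covers all annotated transcripts (10870 bases for PPARGC1A, 1848 for TFB2M). By mean CPM in short-term nontarget cells, PPARGC1A (25.7) stood above ESRRA (22.3), NRF1 (18.2) and TFB1M (7.77). On that scale TFAM (157) and PPRC1 (75.2) stood above TFB2M (63.1).

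**Figure D3:**
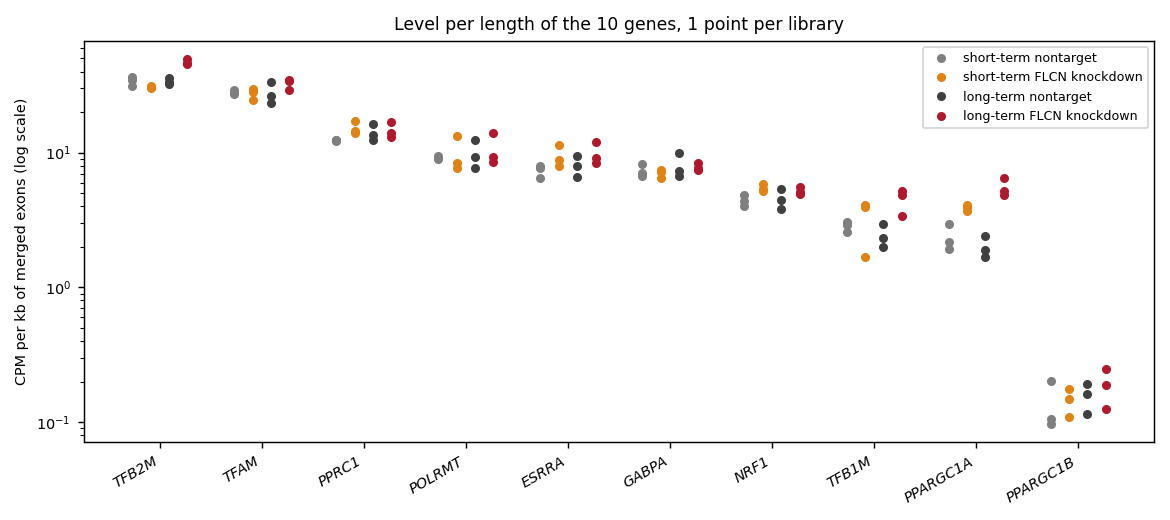
Level per kilobase of merged exons (log axis) of the 10 genes in order of their short-term nontarget mean, 1 point for each of 12 libraries, coloured by group. PPARGC1A rose from 1.68 to 2.98 CPM per kb in nontarget libraries to 3.68 to 6.48 in knockdown libraries, and PPARGC1B lay below 0.251 throughout.

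Genes around these 10 were read from 7 lists, whose counts stand beside 10.3% of all genes called short-term (5.62% higher) and 29.5% long-term (13.7% higher). Of 21 tested partners that PGC-1 coactivates or works with, 4 were called after short-term knockdown (2 higher, 2 lower) and 9 after long-term knockdown (5 higher, 4 lower), against 10.3% and 29.5% of all genes. The 5 include NR1H3, FOXO4 and SOX9, which the study named from these samples, so the count is not independent evidence of a direction. PPARA, the receptor for fatty acid oxidation genes, rose in both (log2 fold change 0.54 and 0.66). FOXO3, a forkhead factor of the stress response, fell in both (−0.82 and −0.94), from 32.5 to 35.9 CPM in the 6 nontarget libraries to 15.6 to 20.2 CPM in the 6 knockdown libraries. PPARG, the adipocyte receptor, fell short-term (−0.80), and its long-term value was −0.26 (edgeR's adjusted p = 0.289). NR2F2, an orphan receptor known as COUP-TFII, had −0.01 short-term and fell by 1.58 long-term, from 148 ± 7.07 to 49.5 ± 7.22 CPM (SD, n = 3). The short-term call of PPARA held in 2 of 6 fits without 1 library (edgeR's adjusted p as high as 0.100, without knockdown replicate 2).

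The study names 6 genes beside PPARGC1A, 5 of them as its targets, and they were picked from these samples. After long-term knockdown SOX9, a progenitor transcription factor, rose 4.70-fold (2.48 to 3.11 CPM in nontarget and 10.3 to 17.1 CPM in knockdown libraries), with 0.06 on the log2 scale short-term. NR1H3, the sterol sensor LXRα, rose by 1.47 long-term and had 0.47 short-term (edgeR's adjusted p = 0.203). In nontarget cells NR1H3 fell by 1.08 with long culture (lost without short-term replicate 1 at an adjusted p (edgeR) of 0.0828 or long-term replicate 2 at 0.0592). HMOX1, heme oxygenase, rose in both (1.75 and 1.27), CYCS, cytochrome c, rose long-term (0.72), and so did FOXO4 (0.61, lost without long-term nontarget replicate 2 at an adjusted p (edgeR) of 0.0545). SIRT1, a deacetylase that acts on PGC-1α, fell by 0.35 long-term. That call was lost without long-term nontarget replicate 1 (edgeR's adjusted p = 0.0826) or long-term knockdown replicate 3 (0.0559).

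Of 22 tested genes upstream of PGC-1, 2 were higher and 0 lower short-term (4 higher and 1 lower without replicate 3 of every group, and 1 to 4 higher over all alternatives), where 10.3% of all genes were called. Long-term, 0 were higher and 4 lower (1 higher by DESeq2, and 2 higher and 6 lower without replicate 3 of every group), where 29.5% of all genes were called. The 4 include SIRT1, named by the study. FNIP2, a binding partner of folliculin, had 20.7 to 23.8 CPM in short-term nontarget and 41.9 to 54.5 CPM in short-term knockdown libraries, and 22.1 to 27.7 against 9.67 to 12.03 CPM in long-term ones. It therefore rose short-term (log2 fold change 1.09) and fell long-term (−1.13). ATF2, which binds cyclic AMP response elements, rose short-term (0.52), a call held in 2 of 6 fits without 1 library (edgeR's adjusted p as high as 0.0948, without knockdown replicate 2). MITF, of the same family as TFE3, fell long-term (−0.41). Among 16 coregulators 0 were called short-term by edgeR or DESeq2 (1 had an unadjusted p under 0.05), while 2 were called higher with the replicate block and 1 without replicate 3 of every group. Long-term, 2 rose (4 with the block, 5 without replicate 3 of every group), against 13.7% of all genes called higher. These 2 were FBXW7 (0.75), a ubiquitin ligase subunit that marks PGC-1α for degradation, and LPIN1 (0.63), lipin 1, which works with PGC-1α on fatty acid oxidation genes.

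Of 24 genes for mitochondrial transcription and RNA processing outside the 10, 1 was higher short-term, where 5.62% of all genes were. Long-term, 9 were higher and 0 lower (12 higher with the replicate block, and 6 to 12 over all alternatives), against 13.7% of all genes called higher. The median log2 fold change was 0.03 short-term and 0.34 long-term. LRPPRC, which stabilises mitochondrial mRNAs, rose in both (0.47 and 0.76). Its short-term call held in 3 of 6 fits without 1 library (edgeR's adjusted p as high as 0.0970, without nontarget replicate 1). FASTKD1 (0.84) and FASTK (0.67), RNA-binding proteins of the mitochondrial matrix, rose long-term. Of 21 genes for mitochondrial DNA maintenance 0 were called short-term by edgeR or DESeq2 (2 higher and 4 lower at an unadjusted p under 0.05), while edgeR called 1 lower with the replicate block, and 2 higher and 1 lower without replicate 3 of every group. Long-term, 5 rose and 3 fell (6 and 5 with the block), against 29.5% of all genes called and 13.7% called higher. DGUOK, the purine deoxynucleoside kinase of mitochondria, rose by 0.92, whereas TK2, its pyrimidine counterpart, fell by 1.16 and SLC25A4, the ADP/ATP carrier ANT1, fell by 1.63. TK2 shares 1793 exonic bases with 3 other annotated genes and DGUOK 62 with its antisense gene.

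Of 29 tested metabolic and antioxidant targets of PGC-1, 6 were higher and 0 lower short-term (3 to 8 higher over the alternatives), against 5.62% of all genes called higher. Long-term, 12 were higher and 4 lower (10 to 12 and 3 to 6 over the alternatives), against 29.5% of all genes called and 13.7% called higher. HMOX1 and CYCS, which the study named from these samples, are among the 12, and HMOX1 among the 6. HADHA, of fatty acid β-oxidation, rose in both (0.56 and 0.87), and CPT2, which frees fatty acids from carnitine inside mitochondria, rose long-term (0.92). COX5B, a subunit of cytochrome c oxidase, rose in both (0.55 and 0.40), but the long-term call held in 3 of 6 fits without 1 library (edgeR's adjusted p as high as 0.106, without nontarget replicate 2), and the short-term call was lost without nontarget replicate 1 (0.0566). GDF15, a stress cytokine, had 0.47 short-term (edgeR's adjusted p = 0.222) and fell by 1.08 long-term. CPT2 shares 1250 exonic bases with genes on the opposite strand. CPT1A, which loads fatty acids onto carnitine, was chosen after its values were seen: it had 37, 30 and 38 counts in long-term nontarget libraries and 0, 2 and 0 counts after long-term knockdown, with 25 to 54 in the short-term libraries.

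Of 16 genes for protein import, 1 was lower short-term, PITRM1, a presequence peptidase (−0.38), in 1 of 6 fits without 1 library (edgeR's adjusted p as high as 0.100, without nontarget replicate 2). Long-term, 3 rose and 0 fell, against 29.5% of all genes called and 13.7% called higher. Without replicate 3 of every group 2 were higher and 1 lower short-term, and 4 were higher and 1 lower long-term. PMPCB, which cleaves presequences, rose by 0.69, and the outer membrane receptors TOMM22 and TOMM20 by 0.59 and 0.25, the latter in 2 of 6 fits without 1 library (edgeR's adjusted p as high as 0.211, without nontarget replicate 2). The mitochondrial genome itself, the template of TFAM, TFB2M and POLRMT, gave 13 mRNAs, a list added after the data were seen. Short-term, 0 were called by edgeR or DESeq2 (1 higher and 2 lower at an unadjusted p under 0.05, and 1 higher and 3 lower called with the replicate block). Long-term, 9 were higher and 0 lower (11 and 1 with the block, 7 and 0 without replicate 3 of every group), against 13.7% of all genes called higher. They took 3.13, 2.54 and 2.54% of counts in long-term nontarget and 4.65, 3.61 and 3.22% in long-term knockdown libraries, but 4.07, 3.90 and 3.89% in short-term nontarget and 3.74, 3.24 and 3.38% in short-term knockdown libraries. The shares were thus lower in every short-term knockdown library than in any short-term nontarget library, and higher in every long-term knockdown library than in any long-term nontarget library. In nontarget cells 8 of the 13 fell with long culture, where 7.55% of all genes were called. As transcripts of 1 genome the 13 need not move independently, so these counts are not like counts over separate genes. The RNA was selected for poly(A).

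**Figure D4:**
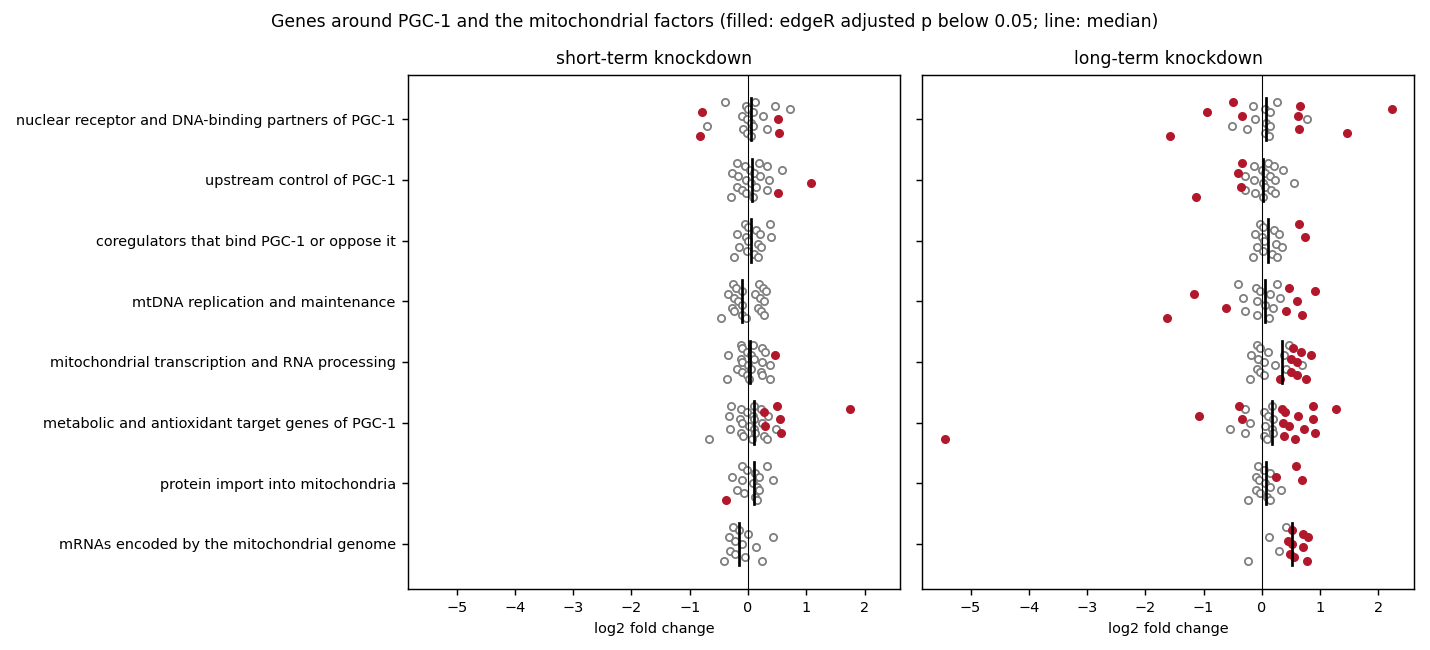
Log2 fold change of each tested gene in 8 lists after short-term (left) and long-term (right) FLCN knockdown; filled points passed the edgeR threshold and lines give the median. In the list of mitochondrial transcription and RNA processing 9 of 24 genes were called long-term, all higher, and the point far to the left is CPT1A.

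The genes whose pattern over the 12 libraries was most like that of PPARGC1A were sought by the root mean square (RMS) difference of log2 CPM, each gene centred on its own mean, among 10189 genes with a mean of at least 50 counts. Among the nearest were SPOCK1 (RMS difference 0.195), a secreted proteoglycan, MRPL22 (0.225), a mitochondrial ribosomal protein, GON4L (0.230) and SUCLG1 (0.234), the alpha subunit of succinyl-CoA ligase. SPOCK1 had mean levels of 111, 171, 90.5 and 295 CPM in short-term nontarget, short-term knockdown, long-term nontarget and long-term knockdown cells, in the same order as PPARGC1A. SUCLG1 had 78.7, 103, 67.8 and 159 CPM. Of the 10 genes described here, TFB1M came closest to PPARGC1A, at place 589 of this ranking, and TFB2M followed at 1299. Over the 4 group means alone CCBE1 was first, and none of the 4 genes above was among the first 5. Exons of GON4L and CCBE1 overlap genes on the opposite strand.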

How the data were processed

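Poly(A) RNA of 12 HK2 libraries was analysed. Per the supplementary methods, the authors used a TruSeq v2 kit and a MiSeq, trimmed with fastp, aligned with STAR (2-pass mode), counted with featureCounts and compared groups with DESeq2 in SARTools. The submitters' notes name GRCh38. Versions, annotation release and strand setting are not given in the sources used here. The deposited values are raw counts per gene, identical in the authors' table and per-library files (0 values differed). The authors' normalized values, unit score, were only checked (100% within 1 of count divided by a library factor).

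IDs were matched to GENCODE 29 on GRCh38. Of these 55661 had the same version, 2364 had another, and 263 found no match and held 0.0126% of counts. Counts were tested with edgeR 4.0.16 in R 4.3.3 (filterByExpr, TMM, robust glmQLFit, prior count 0.125, a mean per group), two-sided, with Benjamini-Hochberg adjustment over 13959 genes holding 99.8% of counts. The biological coefficient of variation was 12.0%, so spread between libraries, not depth, limits most values. The SE given is the absolute log2 fold change divided by the square root of the F statistic of edgeR's test. The code was tested on simulated data. CPM per kb divides by merged exon length. Motifs were searched in RefSeq promoters (GRCh38.p14).

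The members, lists and tests were chosen with earlier results of these data known. Genes named beyond the 10 are FLCN, those the study names beside PPARGC1A, up to 3 called genes per list and knockdown comparison with the largest fold change and a mean of at least 50 counts, and the 5 most like PPARGC1A. Some items are not reported here. Same-numbered libraries deviated together between long-term nontarget and long-term knockdown (r = 0.284, 0.123 and 0.458) and between both knockdown groups (0.223, 0.292 and 0.455). The replicate number was therefore taken to pair them there. Short-term knockdown and long-term nontarget, which were not compared, had similar values (0.279, 0.150 and 0.467). Unlike numbers could also go together, as in long-term nontarget replicate 1 and long-term knockdown replicate 2 (0.231). Alternatives were RLE factors, DESeq2 1.42.0, no filter, a mean of at least 10 CPM, the replicate block, the per-library files, only the groups compared, TPM-like scaling, shorter promoters, and leaving out libraries.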

Additional observations from a re-analysis of the deposited data

Results flagged for a closer look

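Among the 10 genes, FLCN, the genes the study names and those named from the lists by size of change, the following knockdown effects differed between short-term and long-term cells by edgeR's interaction test (adjusted p below 0.05), given as the long-term minus the short-term log2 fold change. Among the 10 genes they were PPARGC1A at 0.74 and TFB2M at 0.61. Of the named partners and upstream genes they were SOX9 at 2.18, NR2F2 at −1.57 and FNIP2 at −2.22. Of the named genes for mitochondrial DNA maintenance they were SLC25A4 at −1.59, TK2 at −0.81 and DGUOK at 0.65. GDF15 had −1.56, PMPCB 0.96 and TOMM22 0.41. The call of TOMM22 was lost in 9 of 12 fits without 1 library (edgeR's adjusted p as high as 0.133, without long-term knockdown replicate 1). FNIP2 moved in opposite directions, with every short-term knockdown library above and every long-term knockdown library below the nontarget libraries of its time. THRB, a thyroid hormone receptor among the partners, was chosen after its values were seen and did the same. It rose by 0.52 short-term (edgeR's adjusted p = 0.00353) and had a log2 fold change of −0.35 in long-term cells (edgeR's adjusted p = 0.0163). With long culture, THRB rose by 0.60 in nontarget cells (edgeR's adjusted p = 0.00127). In knockdown cells its change of −0.27 was not called (edgeR's adjusted p = 0.0678). FNIP2 had 0.15 with long culture in nontarget cells (edgeR's adjusted p = 0.640) and −2.06 in knockdown cells. The genes chosen for their likeness to PPARGC1A are not listed here, nor is CPT1A, which passed and is counted among the targets. Over the whole lists, beside 13.4% of all genes, the interaction passed for 5 of 21 partners (2 higher, 3 lower long-term), 1 of 22 upstream genes (lower), 0 of 16 coregulators (2 at an unadjusted p under 0.05, and 1 by DESeq2), 3 of 21 genes of mitochondrial DNA maintenance (1 higher, 2 lower), 1 of 24 of mitochondrial transcription and RNA processing (higher), 6 of 29 metabolic and antioxidant targets (2 higher, 4 lower), 2 of 16 import genes (higher) and 6 of 13 mRNAs of the mitochondrial genome (higher), so the named genes are not the whole set. With the replicate block, where 20.6% of all genes were called, 11 mRNAs of the mitochondrial genome were higher. Partners then had 4 higher and 3 lower, upstream genes 0 and 3, coregulators 1 and 0, and DNA maintenance 2 and 2. Mitochondrial transcription and RNA processing had 3 and 0, the targets 5 and 5, and import 3 and 1. Without replicate 3 of every group 5 upstream genes were lower.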

How the results depend on the processing

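No value of the 10 genes changed direction while called under any alternative tried: of their values under the alternatives, 717 kept their side of the threshold, 19 lost the call and 4 gained it. The number of the 10 genes called ranged, over the fits without 1 library, from 0 to 1 short-term, from 2 to 4 long-term, from 1 to 2 for long culture of knockdown cells, from 1 to 2 for the interaction, and was 0 throughout for long culture of nontarget cells. With the replicate block it was 2 short-term, where PPRC1 passed (edgeR's adjusted p = 0.0301). The numbers did not pair the short-term groups (r = 0.0172, 0.111 and 0.0540), although 10 of 12 libraries correlated best with their own number. The number for the interaction was 1 with a mean of at least 10 CPM, where PPARGC1A had an adjusted p (edgeR) of 0.0552, and 1 without replicate 3 of every group. TFB1M fails the 10 CPM minimum and has no value there. The block changed no other call of the 10 genes than those of PPRC1 and TFAM. Over all genes, the block moved the calls from 1441 to 2359 short-term, from 1054 to 1786 for long culture of nontarget cells and from 1872 to 2879 for the interaction. Long culture of nontarget cells also gave 666 at 10 CPM, 1586 without replicate 3 of every group, and 581 or 645 without short-term nontarget replicate 1 or 2, which left 874 or 906 short-term. The causes were not tested. Depth limits PPARGC1B and TFB1M most.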
